A study of Mus musculus with 10 samples.

Results

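Dense clusters of open chromatin peaks were described in innate lymphoid cells (ILCs) of the mouse small intestine. All ATAC-seq peaks outside chromosome Y were sorted by position, and each peak was joined to the preceding one when the gap between them was at most 12500 bp. A run of peaks joined in this way is called a chain, and a chain of at least 5 peaks is called a cluster. This rule used positions alone, not the level or change of any peak. It gave 922 clusters that hold 6012 of 36251 peaks (16.6%). The remaining peaks comprised 16727 in 6750 chains of 2 to 4 peaks and 13512 single peaks.

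ATAC-seq uses the Tn5 transposase to insert sequencing adapters into open chromatin, and was applied to ILCs that had been sorted from small intestinal lamina propria of mice of the strain C57BL/6. All mice carried Id2creERT2+, in which Id2 drives a Cre recombinase that tamoxifen activates, with the reporter tdRFP+, and received tamoxifen in the diet for several weeks before the sort. The Control group (n = 3) carried no floxed gene. All 3 knockouts carried the floxed allele that gives RORgt-KO (n = 2) its name, to which RORgt-Tbet-KO (n = 2) added Tbx21f/f and RORgt-RORa-KO (n = 3) added Roraf/f. Each library was a biological replicate made from 1 intestine or from 2 or 3 pooled intestines. Id2 is expressed by all ILC subsets, so the deletions were not limited to one of them. No source used here gives the floxed exons, the sorting markers, or the mice's age or sex.

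Regulatory elements of a gene often lie close together, as a promoter with several enhancers, and genes that define a cell type are known for long stretches of such elements. Joining elements within 12.5 kb is a common first step in searching for such stretches. The next step ranks them by signal, which was not done here, so the clusters are not called super-enhancers. Group 3 ILCs, which make IL-22 and IL-17, are defined by the factor RORgt. T-bet, the product of Tbx21, directs type 1 programmes, and RORa, the product of Rora, is a nuclear receptor related to RORgt that takes part in both type 2 and type 3 ILCs.

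The libraries held 2271585 to 5047436 reads in peaks, and the median peak held 37 to 73 reads. Of the defining genes of ILCs on the pan-ILC surface list, 11 of 12 had a peak. So did 5 of 6 T cell markers, 3 of 7 B cell markers and 4 of 6 myeloid markers. Epithelial markers had a peak at 5 of 7 genes, and stromal and endothelial markers at 3 of 6. Clusters lay at only 1 T cell marker, Cd5, and 1 B cell marker, Blk, and at none of the myeloid, epithelial or stromal markers. In bulk samples, fewer cells of a type and less accessibility per cell cannot be told apart.

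The promoters of 3 genes whose clusters stand out below are shown first, because each lies under a peak of its cluster and so ties the cluster to a start site. The windows run from 250 bases before to 50 bases after the RefSeq start (GRCm38.p6): Il22, encoding the type 3 cytokine IL-22, at chr10:118204714-118205013 on the plus strand; Ccl3, encoding a chemokine of type 1 lymphocytes, at chr11:83649329-83649628 on the minus strand; and Fasl, encoding Fas ligand, at chr1:161788446-161788745 on the minus strand. Capitals mark the ROR half-site, searched as AGGTCA on both strands.
Il22: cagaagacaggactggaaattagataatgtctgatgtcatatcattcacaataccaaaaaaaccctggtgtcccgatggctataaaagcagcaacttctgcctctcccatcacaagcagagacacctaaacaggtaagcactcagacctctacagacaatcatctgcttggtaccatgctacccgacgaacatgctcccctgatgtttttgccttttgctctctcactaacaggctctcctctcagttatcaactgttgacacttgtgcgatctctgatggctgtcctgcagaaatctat
Ccl3: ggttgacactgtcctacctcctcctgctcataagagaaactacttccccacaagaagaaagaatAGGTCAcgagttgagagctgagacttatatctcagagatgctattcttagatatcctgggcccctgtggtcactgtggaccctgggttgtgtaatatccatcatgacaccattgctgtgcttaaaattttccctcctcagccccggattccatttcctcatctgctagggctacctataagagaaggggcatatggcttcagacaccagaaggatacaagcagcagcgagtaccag
Fasl: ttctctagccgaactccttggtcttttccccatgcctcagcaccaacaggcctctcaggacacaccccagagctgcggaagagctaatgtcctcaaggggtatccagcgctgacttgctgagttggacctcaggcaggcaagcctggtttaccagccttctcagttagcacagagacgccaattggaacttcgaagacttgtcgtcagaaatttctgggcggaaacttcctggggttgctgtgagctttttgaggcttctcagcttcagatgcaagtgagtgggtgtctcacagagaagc

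The Ccl3 window holds 1 ROR half-site, and the letters are not in the Il22 or Fasl window. A T-box half-site, searched as GGTGTGA on both strands, is in none of the 3. Over all promoter windows the ROR half-site occurs in 14.7% of 21238, in 11.1% of the 10098 that lie under any peak and in 12.4% of the 872 that lie under a cluster peak. The T-box half-site occurs in 3.68%, 3.18% and 2.64% of the same windows. Windows under cluster peaks thus held either motif about as often as other windows, and a match is a description of letters only.

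Most clusters were small. Of the 922, 409 held 5 peaks, 188 held 6, 126 held 7, 77 held 8, 50 held 9 and 72 held 10 or more. Their span ran from 2.77 to 132 kb with a median of 29.2 kb, and the peaks covered a median of 11.0% of it (3.17 to 52.2%). The median gap between neighbouring peaks was 5023 bp. Of 5090 neighbouring pairs, 415 lay under 500 bp apart, where 1 open region may have been split by the peak caller. Cluster peaks were somewhat shorter than others, with a median of 431 bp against 463 bp in chains of 2 to 4 and 541 bp for single peaks. They were somewhat higher, with a median of the mean log2 value of 6.11 against 5.90 and 5.69.

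Cluster peaks lay more inside genes and less at promoters than other peaks. Peaks that overlapped a promoter window made up 12.4% in clusters, 20.5% in chains of 2 to 4 and 29.6% of single peaks. Those inside a gene made up 54.8%, 47.0% and 37.9%, and those between genes about a constant 32.8%, 32.6% and 32.5%. At least 1 promoter peak was found in 470 clusters, and 452 had none. The nearest protein-coding gene within 50 kb named 868 clusters and 1382 genes in all, with 342 clusters spread over at least 2 genes and 54 clusters far from any named gene. On chromosome 1, 19.7% of peaks lay in clusters, on chromosome 11 19.5%, and on X only 7.55%, in 9 clusters.

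The 10 clusters with the most peaks lay at genes of several kinds. The largest, at Sfi1 (chr11:3104772-3202304), encoding a centriole protein, held 24 peaks. Its summed log2 value, from 13.7 to 14.5 over the libraries, was also far above that of the other named clusters, and reads there are uncertain, since the mouse genome is known for near-identical copies of this sequence. Next came Atp10a, encoding a phospholipid flippase, with 20 peaks (chr7:58657912-58753673). Then came 3 clusters of 17 peaks, at Mbd2, Tpst2 and the Gimap genes, which encode GTPases of lymphocytes. The clusters at Ccdc88c, at Fosb, at Cd2bp2 and the integrin gene Itgal, and at the Lta, Tnf and Ltb cytokine genes (chr17:35164432-35242983) held 16 peaks each, and that at Acot7 held 15. The summed value of 5 of the 10 passed the test in no knockout, those at Sfi1, Atp10a, Mbd2, Ccdc88c and Acot7. Of all 922 clusters, 11.2% passed in RORgt-KO, 37.9% in RORgt-Tbet-KO and 35.2% in RORgt-RORa-KO. The share of all clusters that passed in no knockout is not given here, so the 5 of 10 is a description only.

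Peak levels were compared between groups on the authors' log2 scaled read counts with limma, in 1 fit of all 36251 peaks and 4 groups, and a peak is called when its Benjamini-Hochberg adjusted p is under 0.05. The 3 comparisons with Control share the same 3 control libraries. In RORgt-KO, 784 cluster peaks were called (13.0%, against 12.3% of all peaks), 413 of them higher and 371 lower. In RORgt-Tbet-KO, 1575 were called (26.2%, against 22.6%), 1137 higher and 438 lower. In RORgt-RORa-KO, 2039 were called (33.9%, against 31.2%), 1246 higher and 793 lower. The share of cluster peaks called was thus close to the background, and the direction differed from it more than the number. Without RORgt-KO replicate 1 or 2 the RORgt-KO count fell to 255 or 346, and without RORgt-Tbet-KO replicate 1 or 2 the RORgt-Tbet-KO count fell to 663 or 628.

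The split by direction differed between clusters, chains of 2 to 4 and single peaks. In RORgt-Tbet-KO, 18.9% of cluster peaks were higher than in Control, against 11.7% in chains of 2 to 4, 7.42% of single peaks and 11.3% of all peaks. Lower peaks ran the other way, at 7.29%, 10.6%, 13.9% and 11.3%. In RORgt-RORa-KO the higher peaks made up 20.7%, 15.9%, 11.7% and 15.1%, and the lower ones 13.2%, 16.4%, 17.0% and 16.1%. RORgt-KO showed the same order with smaller steps: 6.87%, 5.39%, 4.20% and 5.19% higher, and 6.17%, 7.25%, 7.38% and 7.12% lower. The median log2 change of cluster peaks was 0.07 in RORgt-KO, 0.21 in RORgt-Tbet-KO and 0.14 in RORgt-RORa-KO, beside 0.02, 0.01 and 0.02 over all peaks. These are descriptions, since peaks are not replicates, and the difference between the classes was not tested peak by peak. The split also went with peak level in RORgt-Tbet-KO. There the tallest peaks of each cluster were 241 higher and 48 lower, and the lowest 100 and 90. In RORgt-RORa-KO the same counts were 154 and 118, and 180 and 125. The part of peak level in the difference between the classes was not tested.

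**Figure D1:**
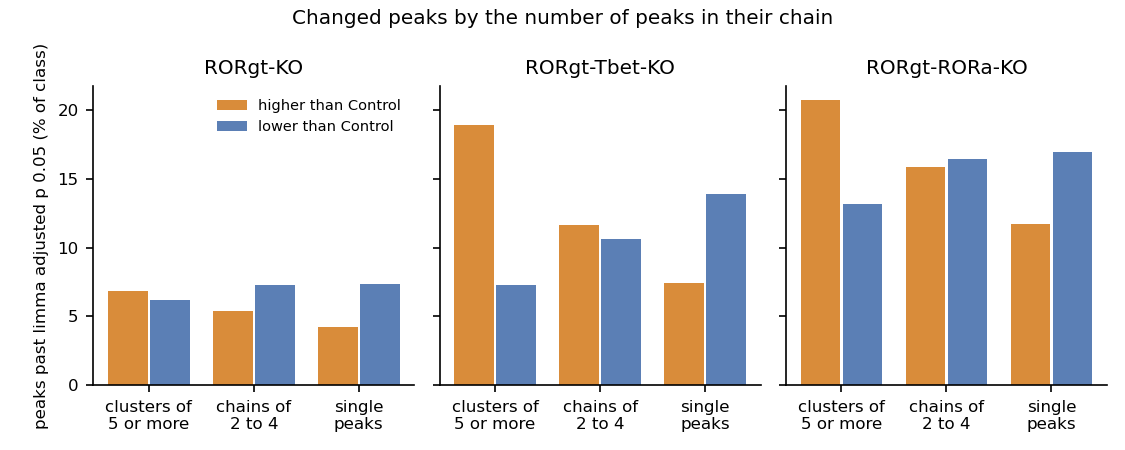
Percent of peaks called higher or lower than Control (limma adjusted p under 0.05) in each knockout, for peaks in clusters of 5 or more, in chains of 2 to 4 and single peaks. In RORgt-Tbet-KO the higher share goes from 18.9% in clusters to 7.42% of single peaks and the lower share from 7.29% to 13.9%.

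Promoter peaks were called less often than other peaks, in clusters as outside them. In the single knockout and then in the RORgt-Tbet-KO and RORgt-RORa-KO groups, 1.74%, 11.5% and 13.4% of promoter peaks were called, against 14.4%, 28.2% and 36.2% of cluster peaks inside genes and 15.1%, 28.4% and 37.9% of those between genes. Outside clusters the shares were 1.71%, 11.4% and 12.8% at promoters, 14.4%, 23.9% and 35.4% inside genes and 17.1%, 27.1% and 38.0% between genes, so the low share at promoters is not particular to clusters. The peaks at the 2 ends of a cluster were called slightly less often than inner ones, at 10.9%, 23.5% and 31.1% against 14.0%, 27.4% and 35.1%.

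For each cluster as a whole, the linear values of its peaks were summed in each library and the log2 sums tested with limma over all 21184 chains, single peaks included. In RORgt-KO 103 clusters were called (11.2%, against 12.3% of all chains), 42 higher (4.58% of all chains were) and 61 lower (7.7%). In RORgt-Tbet-KO 349 were called (37.9%, against 25%), 284 higher (11%) and 65 lower (14%). In RORgt-RORa-KO 325 were called (35.2%, against 31.5%), 201 higher (13.6%) and 124 lower (18%). The share of whole clusters called was above the background in RORgt-Tbet-KO, mostly as higher; a sum over 5 or more peaks holds more reads than a single peak, and the part of this in the share was not tested. Among the called clusters, the libraries of both groups did not overlap in any of the 103 and 349 and in 284 of the 325. This was counted in called clusters only, with no share over all clusters, so it is not separate support for the calls. With quantile scaling the RORgt-KO split was 78 higher and 64 lower, so its balance depends on the scaling.

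These counts rested on few libraries. The RORgt-KO count of 103 clusters fell to 28 and 39 without RORgt-KO replicate 1 or 2, and to 56 and 54 without Control replicate 1 or 2. The RORgt-Tbet-KO count of 349 fell to 167 and 127 without RORgt-Tbet-KO replicate 1 or 2, and to 223 without Control replicate 2. By the F test over the 4 groups, 369 of 922 clusters differed (31.5% of all chains did). Without Control replicate 2, RORgt-Tbet-KO replicate 1 or RORgt-Tbet-KO replicate 2, the count was 235, 238 and 228. Of the 369, 221 had their lowest mean in Control, and 153 of these had their highest in RORgt-Tbet-KO. Another 98 were highest in Control, and 59 of those were lowest in RORgt-RORa-KO. These orders were counted in the called clusters only, with no share over all clusters or all chains.

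Whether the peaks of a cluster changed together was examined first by the calls within it. At least 1 called peak was present in 486 clusters in RORgt-KO, 716 in RORgt-Tbet-KO and 797 in RORgt-RORa-KO (52.7%, 77.7% and 86.4%). In chains of 2 to 4 the shares were 26.1%, 41.7% and 56.3%. A cluster has more peaks that could be called, and the part of peak number in these shares was not tested. Clusters with at least 2 called peaks numbered 207, 444 and 575. Among these, all called peaks pointed the same way in 67.6% of clusters in RORgt-KO (76 higher, 64 lower), in 74.5% in RORgt-Tbet-KO (258 higher, 73 lower) and in 57.7% in RORgt-RORa-KO (222 higher, 110 lower). The other 67, 113 and 243 clusters held peaks called in both directions. In chains of 2 to 4 the share in one direction was 91.0%, 88.9% and 80.6%, but such chains have fewer peaks that could disagree.

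Few clusters had every peak called. This needs all of 5 or more peaks to pass the test, and a peak that is not called may still have changed. The part of peak number and read depth in these counts was not tested. No cluster had all its peaks called in RORgt-KO, 4 did in RORgt-Tbet-KO and 6 in RORgt-RORa-KO, of which 3 and 5 moved in a single direction. Conversely, at least 2 peaks each way were called in 6, 9 and 46 clusters. Opposite calls could leave the sum still: 66, 96 and 193 clusters held peaks called both ways without being called as a whole. The number of clusters with at least 2 called peaks fell to 39 and 62 in RORgt-KO without its replicate 1 or 2, and to 152 and 141 in RORgt-Tbet-KO without its replicate 1 or 2. The share in one direction lay between 64.1% and 74.2%, 70.9% and 86.8%, and 56.1% and 61.6% when scaling, voom, the trend, the low-value filter, the pseudocount, library weights, the replicate block or 1 library was changed. It was not recomputed for other gap or size limits, which change the members.

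The log2 changes of neighbouring peaks were then set side by side. Across the 5090 neighbouring pairs in clusters, Pearson's r was 0.23 in RORgt-KO, 0.33 in RORgt-Tbet-KO and 0.29 in RORgt-RORa-KO. It was highest for pairs under 1 kb apart, at 0.38, 0.56 and 0.50. From 1 to 3 kb it was 0.26, 0.33 and 0.28, and from 6.25 to 12.5 kb it was 0.21, 0.30 and 0.27. Neighbouring peaks of different chains 12.5 to 25 kb apart reached about the same, 0.21, 0.29 and 0.26, and those over 100 kb apart 0.08, 0.14 and 0.09. Pairs in chains of 2 to 4 with gaps of 6.25 to 12.5 kb had higher values, 0.30, 0.37 and 0.35. The pairs past 12.5 kb join peaks of every class, single peaks included, so they give no separate value for clusters or short chains. Pairs share their libraries, and the deviations of single libraries from their group mean also correlated, at 0.24 over cluster pairs, so these are descriptions with no test.

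The log2 changes of neighbours correlated less in clusters than in short chains. In chains of 2 to 4 the correlation over 9977 pairs was 0.36, 0.44 and 0.41, and it was higher than in clusters in each of the 4 gap ranges, with 0.54, 0.62 and 0.61 under 1 kb. The log2 changes were also more spread there, with an SD of 0.75, 0.87 and 0.94 against 0.66, 0.77 and 0.85 in clusters. Among neighbours in clusters that were both called, 80.8%, 87.7% and 77.0% pointed the same way, against 94.0%, 91.8% and 84.9% in chains of 2 to 4. Deviations of single libraries from their group mean had the opposite order, with r of 0.24 in clusters and 0.17 in chains of 2 to 4. Peaks 6 places apart in a cluster had r of 0.11, 0.21 and 0.11 over 889 pairs. Only the longer clusters hold such pairs, so they come from fewer clusters than the neighbouring pairs. The libraries' deviations from their group mean had r of 0.24 for neighbours and 0.27 for peaks 6 places apart. The difference between clusters and short chains was not tested, and the part that the smaller spread of changes plays in it was not tested.

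**Figure D2:**
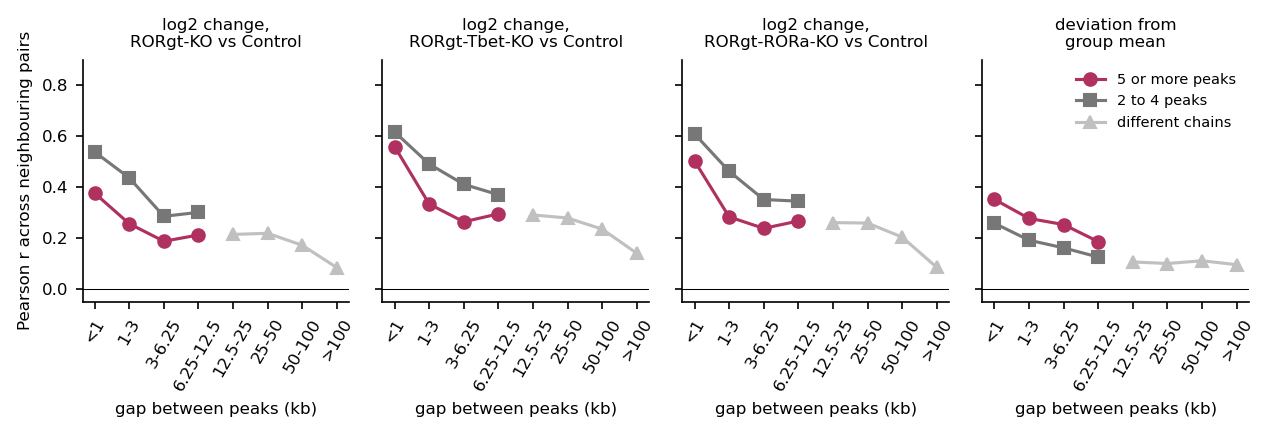
Pearson correlation of the log2 change against Control between neighbouring peaks (3 panels, 1 per knockout) and of the libraries' deviations from their group mean (last panel), by the gap between the peaks. Points stand for neighbours in clusters of 5 or more, in chains of 2 to 4, and in different chains; cluster pairs under 1 kb apart reach 0.38, 0.56 and 0.50 and those from 6.25 to 12.5 kb 0.21, 0.30 and 0.27.

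A direct test asked whether the course of a peak over the 4 groups parts from that of the rest of its cluster. Each peak's log2 value minus the mean of the other peaks of its chain was tested with limma's F test over the 22739 peaks in chains of 2 or more. Of the cluster peaks, 1173 of 6012 parted (19.5%, against 21.2% of all peaks tested and 21.7% in chains of 2 to 4). These shares are not a like comparison, since the mean of the other peaks rests on more peaks in a cluster than in a short chain. In a chain of 2 the values of the 2 peaks mirror each other. The part of chain size in the shares was not tested. The count of parting cluster peaks fell to 732 and 771 without RORgt-Tbet-KO replicate 1 or 2. The parting peaks were spread over many clusters: 338 had none, 243 had 1 and 341 had at least 2. Of the 746 promoter peaks in clusters 80 parted (10.7%), against 1093 of 5266 other cluster peaks (20.8%). Of the parting peaks, 902 also differed among the groups in their own level.

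The named clusters begin with the cytokine genes of type 3 ILCs. The cluster of 5 peaks between and around Il17a and Il17f (chr1:20740387-20767093), encoding IL-17A and IL-17F, had log2 summed values of 10.14, 10.32 and 9.81 in Control, with 9.19 and 8.95 in RORgt-KO, with 9.39 and 9.31 in RORgt-Tbet-KO and with 8.15, 8.29 and 8.22 in RORgt-RORa-KO. Every knockout library lay below every control library, and those of RORgt-RORa-KO lay below all others. The sum fell by 1.01 in RORgt-KO (SE 0.16, limma adjusted p = 6.25e-05), by 0.74 in RORgt-Tbet-KO (adjusted p = 0.00111) and by 1.87 in RORgt-RORa-KO (SE 0.14, adjusted p = 8.52e-11), the last a 3.65-fold lower level. RORgt-RORa-KO was lower than RORgt-KO by a log2 difference of -0.86 (adjusted p = 0.00249), which became -0.74 (adjusted p = 0.117) without RORgt-KO replicate 1, and lower than RORgt-Tbet-KO by -1.13 (adjusted p = 1.59e-05).

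This fall was not shared by all 5 peaks. The peak at 20740387 had 329, 319 and 203 reads in Control, with 128 and 84 in RORgt-KO, with 190 and 238 in RORgt-Tbet-KO and with 36, 15 and 58 in RORgt-RORa-KO, a fall of 3.23 log2 units (SE 0.22) in the last. The peaks at 20754397 and 20759576 fell with it in all 3 knockouts, by 1.92 and 2.82 in RORgt-RORa-KO. The peak at 20766378, nearest to Il17f, had 96, 117 and 73 reads in Control and 85, 68 and 137 in RORgt-RORa-KO, with log2 changes of 0.15, -0.34 and -0.11 that did not pass the test, and it parted from the rest (limma adjusted p = 7.74e-05). The peak at 20743815 passed in no knockout either. The Il17a and Il17f cluster thus held 3 peaks that fell and 2 that passed the test in no knockout.

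The cluster of 7 peaks at Il22 (chr10:118172147-118210470) had log2 summed values of 9.13, 9.04 and 9.01 in Control, with 8.72 and 8.14 in RORgt-KO, with 9.34 and 9.28 in RORgt-Tbet-KO and with 8.05, 8.04 and 7.66 in RORgt-RORa-KO. The RORgt-Tbet-KO libraries were the highest of all and those of RORgt-RORa-KO the lowest. The sum fell by 1.14 in RORgt-RORa-KO (SE 0.16, limma adjusted p = 1.73e-06) and by 0.63 in RORgt-KO (adjusted p = 0.0155), and its log2 change in RORgt-Tbet-KO was 0.25 (adjusted p = 0.313). The RORgt-KO call was lost without RORgt-KO replicate 2 (log2 change -0.34, adjusted p = 0.463) and without Control replicate 1. RORgt-RORa-KO lay below RORgt-Tbet-KO by -1.39 (adjusted p = 2.61e-06), and RORgt-Tbet-KO above RORgt-KO by 0.88 (adjusted p = 0.0118, but 0.59 and 0.542 without RORgt-KO replicate 2, and also lost without either RORgt-Tbet-KO library). Il22 has a near-identical copy close by, Iltifb, so reads there may have been split or lost.

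Within the Il22 cluster 1 peak kept apart. The peak at 118190146 had 88, 99 and 59 reads in Control, with 29 and 15 in RORgt-KO, with 36 and 53 in RORgt-Tbet-KO and with 27, 10 and 17 in RORgt-RORa-KO. It fell in all 3 knockouts, by 1.95, 1.52 and 2.36, while the sum did not pass the test in RORgt-Tbet-KO, and it parted from its cluster (limma adjusted p = 0.00685). The peak over the promoter shown above, picked after its values were seen, had 97, 74 and 58 reads in Control, with 74 and 26 in RORgt-KO, with 170 and 156 in RORgt-Tbet-KO and with 22, 28 and 39 in RORgt-RORa-KO. It fell by 1.46 in RORgt-RORa-KO (adjusted p = 0.00011) and passed the test in neither other knockout.

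Named clusters at genes of type 1 lymphocytes include those at Ccl3 and Ccl4, Fasl and Tbx21; the counts for the whole list, falls included, are given with the gene lists. The cluster of 6 peaks at Ccl3 and Ccl4 (chr11:83620846-83662719), encoding chemokines, had log2 summed values of 5.86, 5.83 and 6.89 in Control, with 7.85 and 7.21 in RORgt-KO, with 5.87 and 6.53 in RORgt-Tbet-KO and with 8.62, 7.95 and 8.76 in RORgt-RORa-KO. RORgt-Tbet-KO lay within the range of Control, and the other 2 knockouts lay wholly above it. The sum rose by 2.25 in RORgt-RORa-KO (SE 0.26, limma adjusted p = 9.13e-08, 5 of 6 peaks called) and by 1.34 in RORgt-KO (SE 0.29, adjusted p = 0.00178, but 1.01 and 0.124 without RORgt-KO replicate 1). Its log2 change in RORgt-Tbet-KO was 0.00 (adjusted p = 0.995). RORgt-RORa-KO lay above RORgt-Tbet-KO by 2.24 (adjusted p = 3.42e-06), and RORgt-Tbet-KO below RORgt-KO by -1.33 (adjusted p = 0.0232, but 0.42 without RORgt-Tbet-KO replicate 1, and also lost without either RORgt-KO library).

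No peak of the Ccl3 and Ccl4 cluster parted from it. The peak over the Ccl3 promoter, picked after its values were seen, had only 1, 7 and 18 reads in Control, with 20 and 10 in RORgt-KO, with 8 and 11 in RORgt-Tbet-KO and with 47, 20 and 82 in RORgt-RORa-KO. It rose by 2.99 in RORgt-RORa-KO (SE 0.68, limma adjusted p = 0.0011). At these depths the peak's changes in the other knockouts (1.49 and 0.26) were not detectable.

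At Fasl, 10 peaks (chr1:161751307-161809729) had log2 summed values of 9.71, 9.45 and 9.53 in Control, with 10.06 and 9.80 in RORgt-KO, with 10.41 and 10.45 in RORgt-Tbet-KO and with 10.51, 10.32 and 10.89 in RORgt-RORa-KO. Both double knockouts lay wholly above Control. The sum rose by 0.86 in RORgt-Tbet-KO (limma adjusted p = 0.00026, 7 peaks called) and by 1.01 in RORgt-RORa-KO (adjusted p = 3.72e-06, 9 peaks called), and its change of 0.37 in RORgt-KO did not pass (adjusted p = 0.151). The peak with the smallest F test p, at 161774831, rose by 2.27 in RORgt-RORa-KO, from 24 to 31 reads in Control to 95 to 226. The cluster of 9 peaks at Tbx21 and Tbkbp1 (chr11:97104194-97150813) rose in all 3 knockouts, by 0.66 in RORgt-KO (adjusted p = 0.00567, but 0.111 without RORgt-KO replicate 1), 0.99 in RORgt-Tbet-KO and 0.90 in RORgt-RORa-KO, with no peak called lower and none that parted.

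**Figure D3:**
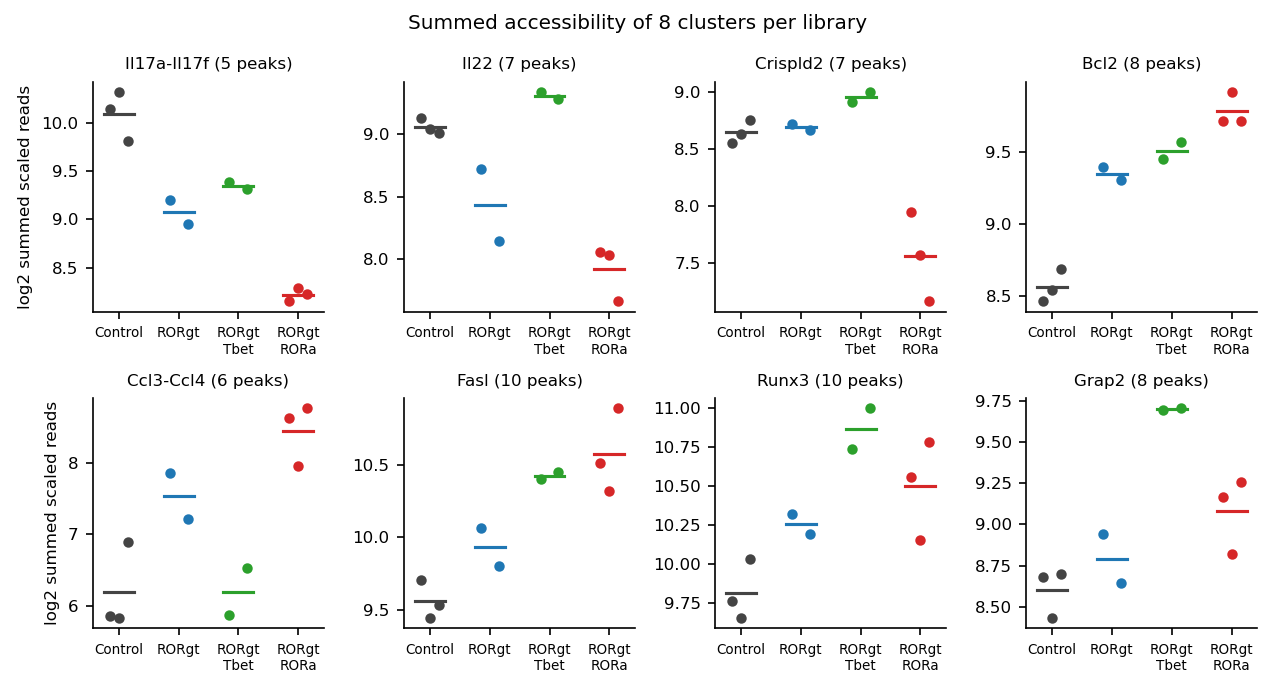
Log2 of the summed scaled read count of 8 named clusters in each of the 10 libraries, by group; points are libraries and lines are group means. The Il17a and Il17f cluster goes from 9.81 to 10.32 in Control to 8.15 to 8.29 in RORgt-RORa-KO, and the Bcl2 cluster from 8.47 to 8.69 to 9.71 to 9.92.

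Some clusters did move as a whole. At Bcl2, encoding an inhibitor of apoptosis, 8 peaks in the gene (chr1:106595275-106647687) had log2 summed values of 8.47, 8.54 and 8.69 in Control, with 9.40 and 9.31 in RORgt-KO, with 9.45 and 9.57 in RORgt-Tbet-KO and with 9.72, 9.92 and 9.71 in RORgt-RORa-KO. All 7 knockout libraries lay above the 3 controls. The sum rose by 0.79 (SE 0.15, limma adjusted p = 0.000487), 0.95 (adjusted p = 3.06e-05) and 1.22 (SE 0.13, adjusted p = 4.2e-08). All 8 peaks were called higher in RORgt-RORa-KO, 3 in each of the other knockouts, and none parted.

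Crispld2, encoding a secreted protein, had a cluster of 7 peaks (chr8:120026303-120051489) that fell in 1 knockout. Its log2 summed values were 8.55, 8.63 and 8.75 in Control, with 8.72 and 8.67 in RORgt-KO, with 8.91 and 9.00 in RORgt-Tbet-KO and with 7.94, 7.57 and 7.16 in RORgt-RORa-KO. The last group lay wholly below the rest. All 7 peaks and the sum fell there, the sum by 1.08 (SE 0.16, limma adjusted p = 7.4e-06), and none parted. It also lay below RORgt-KO, by -1.13 (adjusted p = 0.000462), and below RORgt-Tbet-KO, by -1.39 (adjusted p = 4.98e-06), and both calls held without each library in turn. The changes of the sum in RORgt-KO and RORgt-Tbet-KO against Control were 0.05 and 0.31 (adjusted p = 0.917 and 0.229).

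At Cd300a, encoding an inhibitory receptor of leukocytes, all 5 peaks rose in RORgt-Tbet-KO. The sum was 7.38, 7.06 and 7.31 in Control, with 8.12 and 7.81 in RORgt-KO, with 8.61 and 8.57 in RORgt-Tbet-KO and with 8.11, 7.52 and 8.32 in RORgt-RORa-KO. It rose by 1.34 in RORgt-Tbet-KO (SE 0.20, limma adjusted p = 1.72e-05), by 0.73 in RORgt-RORa-KO, and by 0.71 in RORgt-KO (adjusted p = 0.0174, but 0.281 without RORgt-KO replicate 1, and also lost without Control replicate 2). Cdh10, encoding a cadherin, had 5 peaks that were all called lower in RORgt-Tbet-KO and in RORgt-RORa-KO, and 4 in RORgt-KO. Its sum fell by 1.47, 1.10 and 0.90 in that order; the last lost its call without RORgt-KO replicate 1 (adjusted p = 0.0628).

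**Figure D4:**
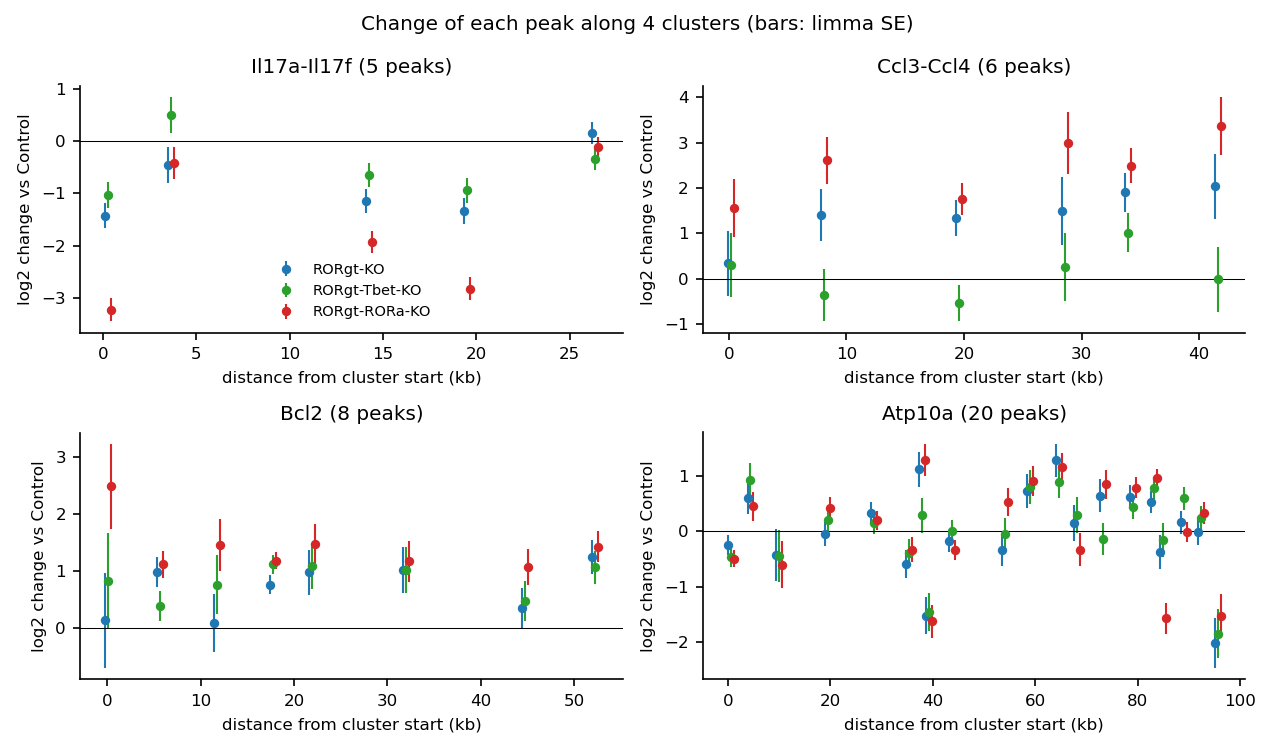
Log2 change against Control of each peak (bars: limma SE) in the 3 knockouts, by distance from the start of the cluster in kb, for the clusters at Il17a and Il17f, Ccl3 and Ccl4, Bcl2 and Atp10a. The 8 Bcl2 peaks all lie above 0 in RORgt-RORa-KO, while the 20 Atp10a peaks lie on both sides, with 6 called higher and 4 lower.

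The clusters with the largest rises outside these lay inside genes with little known part in ILCs. The cluster of 5 peaks at Eipr1 (chr12:28829657-28847539), encoding a protein of endosomal sorting, rose by 1.29, 2.09 and 1.52 in the 3 knockouts in the order used above, from 5.99 to 6.61 in Control to 8.40 in both RORgt-Tbet-KO libraries. Its peak at 28834054 carried most of this, with 23 to 28 reads in Control and 223 and 256 in RORgt-Tbet-KO. The clusters at Mrvi1 (1.04, 1.14 and 1.55, with 3, 6 and 7 of 8 peaks called) and Babam2 (1.03, 1.20 and 1.71) rose in all 3 as well, as did Bend4 (0.84, 0.90 and 0.71). All of these had limma adjusted p of at most 0.000462 in each comparison. At Grap2, encoding an adaptor of antigen receptor signalling, the cluster rose by 1.10 in RORgt-Tbet-KO (adjusted p = 1.51e-05, 6 of 8 peaks) and by 0.48 in RORgt-RORa-KO (adjusted p = 0.0132, but 0.081 without Control replicate 2, and also lost without RORgt-RORa-KO replicate 1 or 3), and was 0.91 above RORgt-KO in RORgt-Tbet-KO (adjusted p = 0.00483, but 0.222 without RORgt-KO replicate 2, and also lost without either RORgt-Tbet-KO library).

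Several large falls occurred in all 3 knockouts, each set against the same controls, whereas the cluster far from Cited2, described with the other gene-less clusters, passed the test in RORgt-Tbet-KO and in neither other knockout. At Tfam, encoding a factor of mitochondrial transcription, the sum went from 9.59 to 9.87 in Control to 8.24 to 8.68, a fall of 1.15, 1.45 and 1.45, with 4 of 6 peaks called lower in each. Ednrb, encoding an endothelin receptor, fell by 1.20, 1.38 and 2.13. Cdc14a, encoding a phosphatase, fell by 1.12, 1.35 and 1.82. Each of these calls had a limma adjusted p of at most 0.000724 and held without each library in turn.

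Cldn10, encoding a tight junction protein, shows how few peaks can carry such a fall. The sum of its 5 peaks (chr14:118854621-118875844) fell by 1.38, 1.00 and 1.67, but only 2 peaks were called in each knockout. The peak at 118856562 went from 79, 57 and 37 reads in Control to 3 to 13 in the knockouts, falling by 3.06, 3.17 and 3.46. The promoter peak, picked after its values were seen, had 44, 48 and 27 reads in Control and 26 to 45 in the knockouts, and was not called (log2 changes of -0.21, -0.54 and -0.37).

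Among the clusters with no named gene within 50 kb, 3 had some of the largest changes of all. The cluster of 6 peaks at chr3:78618954-78661433, 401078 bp from the nearest protein-coding gene, Rapgef2, had log2 summed values of 9.19, 9.27 and 8.72 in Control, with 8.12 and 8.21 in RORgt-KO, with 8.13 and 7.96 in RORgt-Tbet-KO and with 6.65, 6.18 and 6.37 in RORgt-RORa-KO. The groups form 3 levels that do not overlap, with RORgt-KO and RORgt-Tbet-KO together in the middle. All 6 peaks fell in RORgt-RORa-KO, and the sum by 2.66 (SE 0.17, limma adjusted p = 4.81e-12). It fell by 1.01 in RORgt-Tbet-KO (adjusted p = 0.000278) and by 0.90 in RORgt-KO (adjusted p = 0.00172, but 0.0509 without RORgt-KO replicate 1). It lay below RORgt-KO by -1.76 and below RORgt-Tbet-KO by -1.65, calls that held without each library in turn.

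The cluster of 6 peaks at chr10:17548876-17575273, 147955 bp from Cited2, was low in a single group. Its log2 summed values were 7.68, 8.15 and 7.71 in Control, with 7.84 and 7.45 in RORgt-KO, with 6.04 and 6.37 in RORgt-Tbet-KO and with 8.01, 8.68 and 7.86 in RORgt-RORa-KO. The sum fell by 1.64 in RORgt-Tbet-KO (SE 0.22, limma adjusted p = 4.68e-06), with 5 peaks called lower. The changes of -0.20 and 0.34 in the other knockouts did not pass (adjusted p = 0.65 and 0.206). RORgt-Tbet-KO lay below RORgt-KO by -1.43 (adjusted p = 0.00118, but -1.24 and 0.0859 without RORgt-KO replicate 1), and RORgt-RORa-KO lay above RORgt-Tbet-KO by 1.98 (adjusted p = 6.5e-07). The cluster of 5 peaks at chr6:37713478-37732873, 137938 bp from Trim24, fell about equally in all 3 knockouts, by 1.40, 1.73 and 1.68, with 4 peaks called lower in each. Its last peak, at 37732357, had 39 to 79 reads in Control and 41 to 62 in the knockouts and parted from the others (adjusted p = 0.00137).

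At Rora, the gene floxed in RORgt-RORa-KO, 6 peaks (chr9:69289335-69320636) changed little. The sum had log2 changes of -0.01, 0.44 and 0.31, of which that in RORgt-Tbet-KO passed (limma adjusted p = 0.0373) and lost its call without any one of 5 libraries, reaching an adjusted p of 0.247 without RORgt-Tbet-KO replicate 2. The peak at 69314309, with 64, 67 and 69 reads in Control and 124, 113 and 219 in RORgt-RORa-KO, rose by 1.03 there and parted (adjusted p = 0.00681). None of the Rora or Tbx21 cluster peaks was called lower in the knockout that carries the floxed allele.

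Apart from a gene-less one, the most mixed clusters were long ones at named genes. At Atp10a the sum of 20 peaks was 11.82, 11.88 and 11.36 in Control and 11.59, 12.12 and 11.76 in RORgt-RORa-KO, a log2 change of 0.14 (limma adjusted p = 0.553). Yet 6 of its peaks were called higher and 4 lower, and 7 parted. The peak at 58742753 went from 66, 71 and 35 reads in Control to 20, 17 and 22 in RORgt-RORa-KO, a fall of 1.58, and its changes in the other knockouts (-0.37 and -0.15) did not pass. At Bach2, encoding a repressor that restrains lymphocyte differentiation, 10 peaks (chr4:32305788-32352235) gave a change of 0.08 (adjusted p = 0.71), with 3 peaks called higher and 4 lower in RORgt-RORa-KO.

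Both directions could be large within a gene. In Bach2, the peak at 32313786 fell by 3.05 in RORgt-RORa-KO, from 27 to 49 reads in Control to 4 to 6, whereas the peak at 32343237 rose by 0.74, 1.08 and 1.03 in the 3 knockouts, and both parted from the cluster. At Stk24, encoding a kinase, 5 of 12 peaks were higher and 3 lower, and 6 parted. At Mbd2, encoding a protein that binds methylated DNA, 4 of 17 were higher and 4 lower in RORgt-Tbet-KO, and 5 parted. The gene-less cluster of 10 peaks 103418 bp from Jun had 4 higher and 3 lower in RORgt-RORa-KO. None of these was called as a whole against Control.

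Gene lists were read by their clusters. A cluster counts for a list if any of its peaks has a list gene as its nearest gene within 50 kb. A gene can thus count through several clusters. Over all 922 clusters, 4.56% rose and 6.62% fell in RORgt-KO, 30.8% rose and 7.05% fell in RORgt-Tbet-KO, and 21.8% rose and 13.4% fell in RORgt-RORa-KO. Of 10 clusters at type 3 effector and receptor genes, 1 rose and 2 fell in RORgt-KO (median log2 change -0.02), 4 rose and 1 fell in RORgt-Tbet-KO (0.36), and 3 rose and 2 fell in RORgt-RORa-KO (0.16). The falling ones were those at Il17a and Il17f and at Il22. Of 9 clusters at type 1 and natural cytotoxicity genes, 2 rose and 0 fell in RORgt-KO, 2 rose and 2 fell in RORgt-Tbet-KO, and 5 rose and 1 fell in RORgt-RORa-KO, with medians of 0.37, 0.02 and 0.45. The 2 rises in RORgt-KO became 0 without RORgt-KO replicate 1 and 5 with quantile scaling, the 2 falls in RORgt-Tbet-KO became 0 without RORgt-Tbet-KO replicate 2, and the 4 type 3 rises there became 2 without either RORgt-Tbet-KO library. Over all clusters the medians were 0.05, 0.24 and 0.10.

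Clusters at genes of LTi-like ILC3s, the CCR6-bearing subset, rose mostly in RORgt-Tbet-KO. There 6 of 7 rose and 0 fell (median 0.58), where 30.8% of all clusters rose. In RORgt-KO 0 rose and in RORgt-RORa-KO 1 did, where 4.56% and 21.8% of all clusters rose. The cluster at Ccr7, encoding a lymph node homing receptor, rose by 0.76 and that at Cd83 by 0.63, and both lost their calls without RORgt-Tbet-KO replicate 2 (limma adjusted p = 0.0548 and 0.0764). The count of 6 was 2 and 0 without RORgt-Tbet-KO replicate 1 or 2, and 3 without Control replicate 1 or 2, so it rests on single libraries. With the mean of log2 values in place of the sum it was 1 of 7, where 136 of 922 clusters rose. With no mean-variance trend it was 1 as well, so it also depends on the processing. The type 3 list shares the Lta and Ltb cluster with this one.

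Clusters at transcription factor genes were next. Of 18 clusters, 9 rose and 0 fell in RORgt-Tbet-KO (3 without RORgt-Tbet-KO replicate 2), 5 rose and 2 fell in RORgt-RORa-KO, and 2 rose and 0 fell in RORgt-KO (0 rose without RORgt-KO replicate 1). Over all clusters 30.8%, 21.8% and 4.56% rose in that order, so the 5 of 18 in RORgt-RORa-KO lie near the share of all clusters. At Runx3, a factor of cytotoxic and innate lymphocytes, 10 peaks (chr4:135066856-135120728) had log2 summed values of 9.77, 9.65 and 10.03 in Control, with 10.32 and 10.19 in RORgt-KO, with 10.74 and 11.00 in RORgt-Tbet-KO and with 10.55, 10.16 and 10.78 in RORgt-RORa-KO. All knockout libraries lay above Control. The sum rose by 1.05 in RORgt-Tbet-KO (limma adjusted p = 4.35e-05, 8 peaks called) and by 0.68 in RORgt-RORa-KO (adjusted p = 0.000924, 7 peaks called), and its change of 0.44 in RORgt-KO did not pass (adjusted p = 0.0931). At Ikzf1, encoding the lymphoid factor Ikaros, it rose by 0.66, 0.45 and 0.93. The first became an adjusted p of 0.115 without RORgt-KO replicate 1 and the second one of 0.206 without RORgt-Tbet-KO replicate 2; the second was lost without any one of 6 libraries.

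Immediate early genes, which respond to cell handling and stimulation, moved in the same group. Of their 6 clusters 5 rose and 0 fell in RORgt-Tbet-KO, 2 rose in RORgt-RORa-KO and 0 in RORgt-KO, with medians of 0.50, 0.17 and 0.16; of all clusters 30.8%, 21.8% and 4.56% rose in these groups. Those named are Btg2 (0.84), Nr4a1 (0.71), Fos (0.55) and Fosb (0.44). The count was 2 and 1 without RORgt-Tbet-KO replicate 1 or 2. The part of handling in the changes of RORgt-Tbet-KO was not tested. The single T cell marker cluster, at Cd5 and Vps37c, fell by 0.55 in RORgt-KO (limma adjusted p = 0.0149, but 0.151 without RORgt-KO replicate 2, and also lost without RORgt-KO replicate 1 or Control replicate 1) and by 0.77 in RORgt-RORa-KO, and the single B cell marker cluster, at Blk, fell by 0.70, 0.48 and 0.77 in the 3 knockouts (0.277 as the adjusted p of the second without RORgt-Tbet-KO replicate 1, and also lost without Control replicate 2). The part of other cell types in these was not tested.

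The knockouts were also compared with each other, which sets each double knockout beside the single one. Against RORgt-KO, 59 cluster peaks (0.981%, against 1.14% of all peaks) and 13 clusters (1.41%, against 1.44% of all chains) differed in RORgt-Tbet-KO. Of these peaks 23 were higher (0.179% of all peaks were) and 36 lower (0.965%), and of these clusters 9 were higher (0.255% of all chains were) and 4 lower (1.18%). In RORgt-RORa-KO, 78 cluster peaks (1.30%, against 1.47%) and 10 clusters (1.08%, against 1.71%) differed from RORgt-KO, with 22 peaks higher and 56 lower (background 0.331% and 1.14%) and 2 clusters higher and 8 lower (background 0.42% and 1.29%). Between the double knockouts, 526 cluster peaks (8.75%, against 7.54%) and 69 clusters (7.48%, against 7.43%) differed. In RORgt-RORa-KO 222 of these peaks were higher and 304 lower (background 3.82% and 3.72%), and 17 of these clusters were higher and 52 lower (background 3.96% and 3.47%). In total, the share of clusters was close to the background in the first and last comparison and below it in the second. The directions departed from the background more. Clusters were 0.976% higher and 0.434% lower in the first comparison, and 0.217% and 0.868% in the second. Between the double knockouts 1.84% were higher and 5.64% lower. These departures were not tested.

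Of these clusters, 0 of 13, 2 of 10 and 16 of 69 kept their call without each library in turn. The 2 are Crispld2 and the cluster far from Rapgef2, and the 16 include Il17a and Il17f, Il22, Ccl3 and Ccl4, Crispld2 and the clusters far from Cited2 and Rapgef2. The 13 became 2, 2, 2 and 3 without RORgt-KO replicate 1 or 2 or RORgt-Tbet-KO replicate 1 or 2, and 21, 44 and 34 without Control replicate 3 and RORgt-RORa-KO replicates 2 and 3. The 10 became 4 and 3 without RORgt-KO replicate 1 or 2 and 26 without RORgt-RORa-KO replicate 2. The 69 became 20 without either RORgt-Tbet-KO library, 42 without RORgt-RORa-KO replicate 1 and 175 without RORgt-RORa-KO replicate 3. With voom, 44 clusters were higher and 4 lower in RORgt-Tbet-KO than in RORgt-KO, against 9 and 4, so this balance depends on the processing as well.

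The clusters also held a different share of all reads in peaks in each group. The share was 15.7%, 15.9% and 16.1% in Control, with 16.8% and 16.0% in RORgt-KO, with 18.0% and 18.3% in RORgt-Tbet-KO and with 17.2%, 16.7% and 17.9% in RORgt-RORa-KO. The means were 15.9% ± 0.185 (SD, n = 3), 16.4% ± 0.604 (n = 2), 18.1% ± 0.233 (n = 2) and 17.3% ± 0.623 (n = 3). RORgt-Tbet-KO lay above every other library, RORgt-RORa-KO lay above Control, and RORgt-KO overlapped it. The groups differed by an exact permutation test over 25200 arrangements (two-sided by construction, p = 0.0125, Benjamini-Hochberg adjusted over 3 measures 0.0376), which became p = 0.05 without RORgt-Tbet-KO replicate 2. No pair of groups this small can reach 0.05 by permutation alone.

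The mean log2 value of cluster peaks minus that of other peaks gave the same order, with 0.13 ± 0.01 (SD, n = 3), 0.22 ± 0.07 (n = 2), 0.40 ± 0.00 (n = 2) and 0.29 ± 0.10 (n = 3), and an exact permutation p of 0.0303 (adjusted 0.0455). The share of cluster reads that lay outside promoter peaks did not pass (exact permutation p = 0.345). Depth moved with the group: the RORgt-Tbet-KO libraries had 4580787 and 5047436 reads in peaks, the controls 2518233 to 3381784. RORgt-RORa-KO replicate 3, at 4733829 reads, had 17.9%, and its replicate 2, at 2271585 reads, had 16.7%. The part of depth in the share was not tested.

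**Figure D5:**
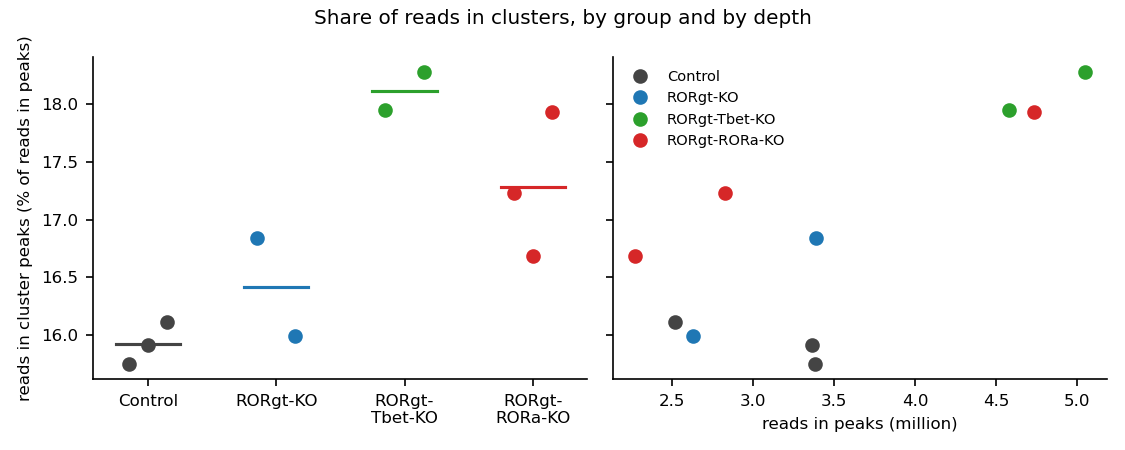
Percent of reads in peaks that fall in cluster peaks, by group (left; points are libraries, lines are group means) and against the number of reads in peaks of each library (right). RORgt-Tbet-KO libraries, the deepest ones but for RORgt-RORa-KO replicate 3, have the highest shares, 18.0% and 18.3%.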

How the data were processed

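ATAC-seq reads of 10 libraries were trimmed with Trim Galore 0.62, aligned with Bowtie2 2.3.5.1, filtered with SAMtools and called into peaks with MACS2 (build GRCm38), per the submitters' processing notes; no source used here says whether libraries were pooled for peak calling. The authors deposited a scaled read count for each peak on a log2 scale; no source used here gives the origin of the scaling factor or the base of the start coordinate. The linear values of non-empty peaks were whole multiples of 1 step per library within 0.01, which gave the reads, and empty peaks held 0.9 of a step. The 11 peaks on Y were left out.

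Members and gene lists were chosen with earlier results of these data known. The test was limma 3.58.1, run in R 4.3.3 with the trend option (variance as a function of mean level) and every group in a single model (for peaks, 6 residual degrees of freedom and 22.5 prior ones), and Benjamini-Hochberg adjustment ran over all peaks or all chains at 0.05. SE is limma's moderated standard error. The same fit was run on log2 sums over chains and on peaks minus the rest of their chain, after a check on simulated data. The count tests were not the main test because the deposited values are on a log scale; voom on the recovered reads is an alternative. Single values per library used an exact permutation test in scipy 1.17.1. Promoter windows and gene positions came from RefSeq (GRCm38.p6). Figures were drawn with matplotlib 3.10.9.

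Named clusters are the 10 with most peaks, the 5 largest rises and 5 largest falls per knockout whose libraries do not overlap, those at the targeted genes, those of the 3 list genes with the smallest F test p, the 5 most mixed, and the 5 with the largest share of peaks called in 1 direction (56 in all); some of them are not reported here. Within them the peak with the smallest F test p and the one that parts most are named. Replicate numbers did not pair the libraries. Alternatives covered scaling, voom, the trend, library weights, a replicate block, low values, the pseudocount, the gap, the size, the mean in place of the sum, and leaving out each library; merging peaks under 500 bp apart was chosen after seeing the data.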

Additional observations from a re-analysis of the deposited data

How the results depend on the processing

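Each of the 56 named clusters was followed only in the comparison with Control that had its smallest limma adjusted p. Alternatives that change the members, by gap, size or merging, were not applied to it. In that comparison, the 45 clusters that were called kept their sign under every alternative run. The 11 that were not called changed sign in 6 cases. Other comparisons of these clusters are not in these counts. The balance of higher and lower calls did turn in some settings, given below and, for RORgt-KO with quantile scaling, in the report. Counts are given first for the 3 knockouts against Control, the single knockout before the RORgt-Tbet-KO and RORgt-RORa-KO groups, then for RORgt-Tbet-KO and for RORgt-RORa-KO against RORgt-KO, and last for the double knockouts against each other; the cause of each shift was not tested unless named. Changing the rule changes the members: a gap limit of 6.25 kb left 211 clusters with 1215 peaks, one of 25 kb gave 1893 with 14969, at least 8 peaks left 199 with 1957, and merging peaks under 500 bp apart left 788 with 5331. At 6.25 kb the called peaks were 152, 317, 416, 9, 12 and 106, the called clusters 19, 73, 63, 0, 2 and 11, those by the F test 73 and the parting peaks 239. At 25 kb they were 1817, 3496, 4810, 145, 200 and 1218 peaks, 190, 654, 642, 25 (RORgt-RORa-KO against RORgt-KO) and 145 (between double knockouts) clusters, 705 by the F test and 3092 parting peaks. With at least 8 peaks they were 261, 534, 678, 14, 23 and 179 peaks, 10, 73, 60, 1, 2 and 12 clusters, 75 by the F test and 354 parting.

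With no mean-variance trend, called peaks were 486 in RORgt-KO, 1019 in RORgt-Tbet-KO and 12, 4 and 244 between knockouts, and called clusters 31, 140, 183, 0, 1 and 17, with 127 by the F test. With the mean of log2 values in place of the sum, called clusters were 40 and 182 in the first and second comparison and 1, 3 and 27 between knockouts, with 190 by the F test. With library weights, peaks between knockouts were 660, 189 and 1230, and clusters were 181 in RORgt-KO and 210, 63 and 254 between knockouts, with 589 by the F test. With voom, RORgt-Tbet-KO against RORgt-KO gave 123 peaks and 48 clusters, and the double knockouts 112 clusters. Library weights turned the split of cluster peaks between RORgt-Tbet-KO and RORgt-KO from 39.0% to 74.7% higher, voom to 55.3% and the replicate block to 56.2%; for RORgt-RORa-KO against RORgt-KO, weights moved the split of clusters from 20% to 55.6% higher.

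Replicate numbers did not pair the libraries: the deviations of 13 same-numbered pairs correlated at -0.12 to 0.14, with 1 over 0.1. A replicate block gave 121 peaks and 31 clusters for RORgt-Tbet-KO against RORgt-KO, 156 clusters for RORgt-KO against Control and 120 clusters between the double knockouts.

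Leaving out each library in turn gave 255 to 963, 628 to 1828, 1632 to 2102, 13 to 144, 15 to 92 and 171 to 770 called peaks, and 28 to 152, 127 to 415, 218 to 394, 2 to 44, 3 to 26 and 20 to 175 called clusters. It gave 228 to 445 clusters by the F test and 732 to 1038 parting peaks. The permutation p of the read share ran from 0.00714 to 0.05 (exact), and the neighbour correlations from 0.18 to 0.29, 0.28 to 0.38 and 0.25 to 0.33. In the single comparison followed per cluster, the 45 named clusters that were called kept the call in 742 of 810 alternatives. They lost it in 68, of which 43 left out a library. The 11 that were not called stayed so in 182 of 198 and gained a call in 16. Groups of 2 or 3 libraries and 37 to 73 reads in the median peak limit what single peaks can show.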

Other observations

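Further clusters differed between knockouts and are given as values; they were chosen after their values were seen. At Plek, encoding pleckstrin, a cytoskeletal protein of leukocytes, the sum of 5 peaks was 8.17, 8.52 and 7.92 in Control, with 8.64 and 8.17 in RORgt-KO, with 7.22 and 7.02 in RORgt-Tbet-KO and with 8.37, 8.68 and 8.17 in RORgt-RORa-KO. It was low in RORgt-Tbet-KO alone, by -1.08 against Control (limma adjusted p = 0.000178), and RORgt-RORa-KO lay 1.29 above it (adjusted p = 4.69e-05). The difference of -1.28 from RORgt-KO had an adjusted p of 0.000957, which became 0.0926 without RORgt-KO replicate 1. At Dock9, encoding a regulator of small GTPases, RORgt-RORa-KO rose by 0.75 against Control, RORgt-Tbet-KO fell by 0.53 (limma adjusted p = 0.0348, but 0.2 without RORgt-Tbet-KO replicate 1, and also lost without any one of 3 other libraries), and 4 of the 5 peaks parted. The sum was 1.28 higher in RORgt-RORa-KO than in RORgt-Tbet-KO (adjusted p = 1.97e-05), and remained called without each library in turn.

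Clusters at Ikzf3, encoding the lymphoid factor Aiolos, and at Plcg2, encoding a phospholipase of receptor signalling, were higher in RORgt-Tbet-KO than in RORgt-KO, by 0.72 and 0.79 (limma adjusted p = 0.0232 and 0.0328). Both lost this call without RORgt-KO replicate 2, with adjusted p of 0.409 and 0.662, and also without any other library of these 2 groups. At Rgs12, encoding a regulator of G protein signalling, and Tnc, encoding tenascin C, RORgt-RORa-KO lay below RORgt-Tbet-KO by -1.18 and -1.09 (adjusted p = 4.8e-05 and 0.000284), and both calls held without each library in turn.

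A cluster of 5 peaks at chr9:70196950-70216862 and another of 7 peaks at chr9:70232077-70258150 both lie in Myo1e, encoding a myosin. The first rose by 0.90 in RORgt-Tbet-KO (limma adjusted p = 0.00023), with a change of 0.18 in RORgt-KO. The second fell by 0.70 in RORgt-KO (adjusted p = 0.0058, but -0.54 and 0.177 without RORgt-KO replicate 2), with a change of 0.06 in RORgt-Tbet-KO. The difference between these 2 clusters was not tested.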
